A study of Mus musculus with 10 samples.

Results

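Epithelial cells of the liver are marked by adhesion proteins, by simple keratins and, in bile ducts, by a further set of ductal genes. The genes described here are Epcam, Cdh1, Krt8, Krt18, Krt19, Krt7, Sox9, Spp1 and Cldn7, taken as every probe set whose platform annotation gives 1 of these symbols alone. Of the 9 genes, 8 had such a probe set, with 13 probe sets in all, among 18193 genes and 45037 probe sets in the table. Spp1, which encodes the secreted phosphoprotein osteopontin, had none and is not analysed here. RNA from the whole liver of single mouse fetuses at embryonic day 14.5 was measured on 1 expression array per fetus. The groups were 5 livers of the genotype Zfp36l2 knockout (KO) and 5 wild type (WT) livers, all of a mixed b6 and 129 strain background, with no treatment named. Zfp36l2 encodes an RNA-binding protein that attaches to AU-rich elements and speeds the decay of mRNAs, and the comparison asks which transcripts differ without it. How the allele was made, and whether it was removed in all cells, is not given in the sources used here.

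At this stage the liver is a blood-forming organ in which hepatoblasts, the bipotent progenitors of hepatocytes and bile duct cells, are the main epithelial cell. Hepatoblasts carry E-cadherin and the keratin pair 8 and 18, while the cells that form the ductal plate around the portal veins switch on Sox9 and later keratins 19 and 7. In whole-organ RNA, fewer cells of a type and less RNA per cell cannot be told apart.

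The values are normalized intensities in array units, and a value under 16 was treated as being at the floor, with no order among such values. A probe set was called where limma's adjusted p was under 0.05. Zfp36l2 itself checked the labels. Its brightest probe set averaged 102 ± 11.3 in KO and 434 ± 91.0 in WT livers (SD, n = 5 each), with no overlap, and fell by 2.08 ± 0.13 in log2 units (SE, limma adjusted p = 1.47e-06). Of its other probe sets, 1451034_at averaged 25.0 ± 7.77 in KO and 31.4 ± 10.8 in WT livers, with overlap (limma adjusted p = 0.858). The last, 1439054_at, was under the floor in all livers. Which part of the transcript each probe set covers was not analysed here. Array medians before normalization lay between 19.5 and 25.01 units, and each array correlated with the others at a mean r of 0.966 to 0.971. All 18 hepatoblast genes and all 12 erythroid genes with a probe set lay above the floor in every liver.

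The genes fell into 2 groups by signal. Cdh1, Krt8 and Krt18 were above the floor in all 10 livers with each of their 5 probe sets, and the lowest single value was 292. Epcam, Krt19, Krt7, Sox9 and Cldn7 had at least 1 liver under the floor in each of their 8 probe sets, and no value of these exceeded 43.1. The ductal members were thus near or under the floor in both genotypes, and the name bile duct genes is not borne out by the signal of these members. Of the 13 probe sets 8 passed the filter on dim values, and 5 did not. None of the 8 was called in limma, where 0.211% of all 27022 probe sets tested were called. At an unadjusted p under 0.05 there were 4 of the 8, 2 of them for Krt8, where 9.75% of all probe sets had such a p. Nothing is read from that count, since it leaves out the members that failed the filter.

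Krt8 and Krt18 are the keratins of simple epithelia. They encode a type II and a type I chain that assemble with each other into filaments. Their genes are neighbours on chromosome 15, with no protein-coding gene between them in the RefSeq gene table (GRCm38.p6), and Krt7, another type II keratin, lies on the same chromosome with 23 protein-coding genes between it and Krt8. The RefSeq promoter windows of these 3 keratins, from 250 bases before to 50 after the annotated start, are shown because 2 belong to the pair that was well above the floor and 1 to a neighbour that was not. They are on build GRCm38.p6 and written 5′ to 3′ on the strand of the gene. Krt8 is at chr15:102004293-102004592 (minus strand), Krt18 at chr15:102027966-102028265 (plus strand) and Krt7 at chr15:101412153-101412452 (plus strand). Capitals mark the E-box CACCTG, to which repressors of the SNAI and ZEB families can bind, the GC box GGGCGG and the TATA box TATAAA, each searched on both strands.
Krt8: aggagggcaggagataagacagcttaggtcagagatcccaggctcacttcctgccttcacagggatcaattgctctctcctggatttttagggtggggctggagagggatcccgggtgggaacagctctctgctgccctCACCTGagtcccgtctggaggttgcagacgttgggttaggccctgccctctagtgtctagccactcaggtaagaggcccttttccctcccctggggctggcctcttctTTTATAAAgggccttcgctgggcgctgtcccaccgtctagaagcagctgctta
Krt18: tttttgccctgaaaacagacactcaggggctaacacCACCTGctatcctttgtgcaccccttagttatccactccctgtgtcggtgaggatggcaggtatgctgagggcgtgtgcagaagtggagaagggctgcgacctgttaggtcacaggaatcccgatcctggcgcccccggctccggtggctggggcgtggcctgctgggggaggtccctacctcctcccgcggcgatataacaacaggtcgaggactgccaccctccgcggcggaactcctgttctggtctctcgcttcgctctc
Krt7: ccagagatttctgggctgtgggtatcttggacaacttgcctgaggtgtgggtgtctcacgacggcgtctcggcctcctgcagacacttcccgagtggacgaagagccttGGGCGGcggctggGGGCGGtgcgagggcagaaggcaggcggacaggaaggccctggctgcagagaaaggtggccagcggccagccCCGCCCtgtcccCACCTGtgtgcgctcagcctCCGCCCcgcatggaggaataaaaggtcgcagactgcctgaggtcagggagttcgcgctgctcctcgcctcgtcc
Each of the 3 windows held 1 match to the E-box, which 20.2% of the 32851 promoter windows in the table held at least once. The Krt7 window also held 4 matches to the GC box, found in 35.7% of all windows, and the Krt8 window held 2 matches to the TATA box, 1 on each strand and overlapping, found in 13.6% of windows. The 2 TATA box matches of Krt8 begin at -3 and -1 relative to the annotated start, and whether they act as a TATA box was not tested. All matches describe letters only.

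Cdh1 encodes E-cadherin, the calcium-dependent adhesion molecule of epithelial adherens junctions. Its 1 probe set read 728, 721, 549, 606 and 759.9 units in KO livers 1 to 5, against 484, 524, 569, 528 and 564 units in WT livers 1 to 5. In this gene 4 of the 5 KO livers lay above every WT liver, and KO replicate 3 lay among the WT livers. The means were 673 ± 90.4 in KO and 534 ± 34.2 in WT livers (SD, n = 5 each). The log2 difference was 0.33 ± 0.09 (SE), a 1.25-fold difference with a 95% interval of 1.10 to 1.43. It was not called in limma after adjustment over all probe sets (unadjusted p = 0.00234, adjusted p = 0.173), and the exact permutation test over livers, two-sided, gave p = 0.0238. Among the 17409 probe sets above the floor in all livers, 7.32% had a positive log2 difference at least as large as that of Cdh1. This share covers probe sets of any brightness above the floor and was not matched to the signal of Cdh1.

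**Figure D1:**
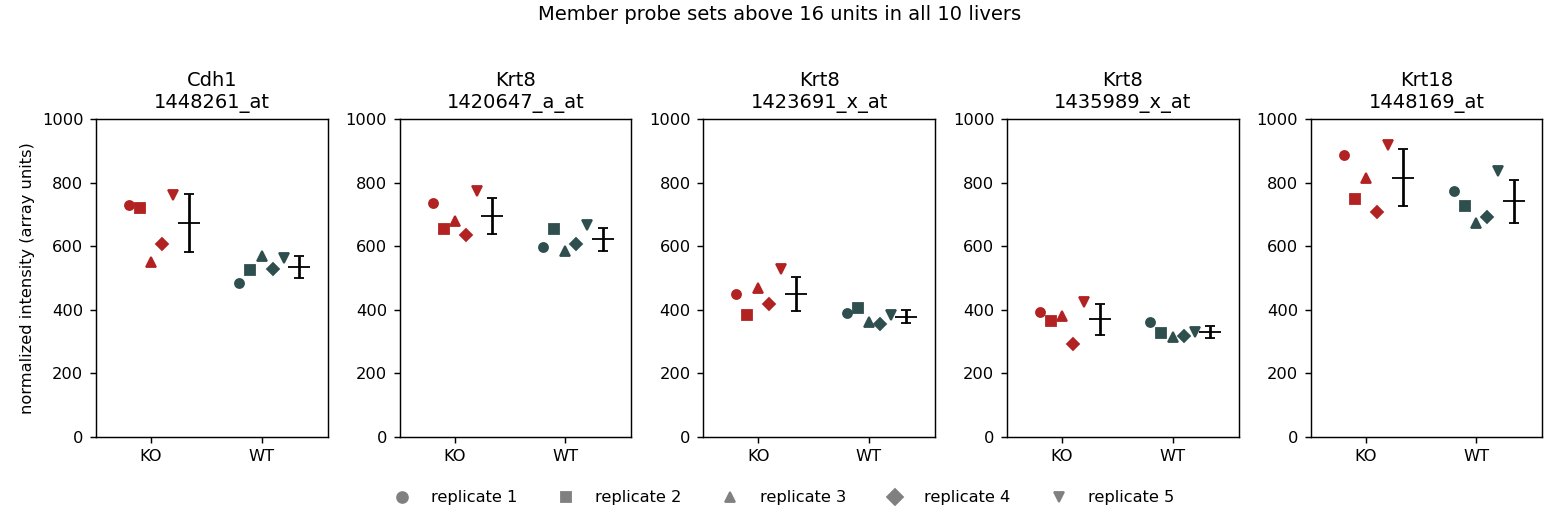
Normalized intensity (vertical axis, array units from 0) of the 5 probe sets of Cdh1, Krt8 and Krt18 in KO and WT livers, 1 symbol per replicate, with mean and SD as a bar at the right of each group. KO livers lie higher on average in each panel, and the genotypes overlap in each, with 4 of 5 KO livers above every WT liver for Cdh1.

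Krt8 was read by 3 probe sets. The first, 1420647_a_at, read 736, 654, 680.3, 635 and 772 units in KO livers 1 to 5, against 597, 653, 586, 607 and 668 units in WT livers 1 to 5. KO replicates 1, 3 and 5 lay above all WT livers, and KO replicates 2 and 4 lay within their range. Its means were 696 ± 57.5 in KO and 622 ± 36.0 in WT livers (SD, n = 5 each), and the log2 difference was 0.16 ± 0.07 (SE, limma unadjusted p = 0.0394, adjusted p = 0.481, exact permutation p = 0.0476). The fold was 1.12, with a 95% interval of 1.01 to 1.24. The second, 1423691_x_at, read 451, 384, 469, 416 and 527 units in KO livers, against 390.4, 404, 359.6, 354 and 383 units in WT livers. Here 4 KO livers exceeded every WT liver and KO replicate 2 did not. The log2 difference was 0.24 ± 0.09 (SE, limma unadjusted p = 0.0138, adjusted p = 0.337, exact permutation p = 0.0238). The third, 1435989_x_at, read 392, 363, 379, 292 and 423 units in KO livers, against 361, 327, 313, 317 and 331 units in WT livers. Again 4 KO livers exceeded every WT liver, while KO replicate 4 was the lowest of all 10. Its log2 difference was 0.15 ± 0.10 (SE, limma adjusted p = 0.647). The 3 probe sets thus agreed in direction, and none was called. Across the 10 livers they correlated pairwise at r = 0.742 to 0.865, as probe sets of 1 transcript on the same arrays. The last 2 carry the _x suffix, which the manufacturer gives to probe sets that may also bind other transcripts, and Krt8 has many related genes.

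Krt18 read 887, 748, 816, 709 and 920.4 units in KO livers 1 to 5, against 775, 726, 673, 692 and 838 units in WT livers 1 to 5. Only KO replicates 1 and 5 lay above all WT livers. The means were 816 ± 89.5 in KO and 741 ± 66.8 in WT livers (SD, n = 5 each), and the log2 difference of 0.14 ± 0.08 was not called (SE, limma unadjusted p = 0.120, adjusted p = 0.637, exact permutation p = 0.175). The 95% interval of the fold ran from 0.973 to 1.24, so a difference in either direction up to that size was not excluded for this keratin. In all 5 probe sets of the 3 genes the SD was larger among KO than among WT livers, which was not tested. Coefficients of variation were 13.4% in KO against 6.41% in WT livers for Cdh1, and 10.97% against 9.02% for Krt18. Those of the 3 Krt8 probe sets in order were 8.26%, 12.13% and 13.24% in KO against 5.79%, 5.601% and 5.77% in WT livers. These 3 read the same gene, and KO means were higher in all 5 probe sets. The share of all probe sets with a larger SD in KO is not given here, so no rise in variability is read from these values.

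**Figure D2:**
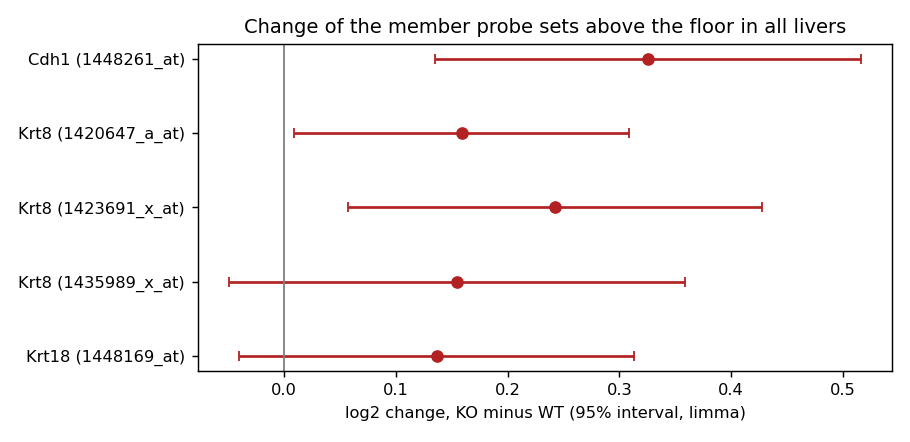
Log2 difference, KO minus WT (horizontal axis), of the 5 probe sets above the floor in all livers, with the 95% interval from limma as a bar. The 5 estimates lie between 0.14 and 0.33, and the intervals of Krt18 and of the third Krt8 probe set include 0.

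Krt8 and Krt18 varied together from liver to liver. Over the 10 livers the log2 values of their brightest probe sets correlated at Pearson's r = 0.881 (permutation p = 0.0011, adjusted p = 0.0033 over 3 pairs) and Spearman's rho = 0.867 (permutation p = 0.00204, adjusted p = 0.00612). Measured as deviations from the genotype means, r was 0.860 (permutation p = 0.00304). KO replicates 5 and 1 were the livers farthest from the median of Krt8, and without them r was 0.684 over 8 livers (exact permutation p = 0.0648). KO replicate 5 was the highest liver of all for Krt8, Krt18 and Cdh1. Cdh1 followed Krt8 less closely, at r = 0.741 (permutation p = 0.0217, adjusted p = 0.0326) and rho = 0.588 (permutation p = 0.0815). As deviations from the genotype means that r was 0.495 (permutation p = 0.143), and without KO replicates 5 and 1 it was 0.330 (exact permutation p = 0.450). Cdh1 and Krt18 gave r = 0.533 (permutation p = 0.114) and rho = 0.406 (permutation p = 0.251), and r = -0.0821 without the same 2 livers (exact permutation p = 0.895). Neither correlation with Krt8 that had a p under 0.05 over 10 livers kept it over these 8, and so both rest in part on those 2 livers. Leaving out the livers farthest from the median also narrows the range of values. For Krt18, replicates 5 and 1 were the 2 highest livers in each genotype. The permutation tests treat livers as exchangeable and take no account of a link between livers of the same number. The pairs of Cdh1 with the keratins were added after the data were seen, and groups of 5 livers are too small for a correlation within 1 genotype.

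**Figure D3:**
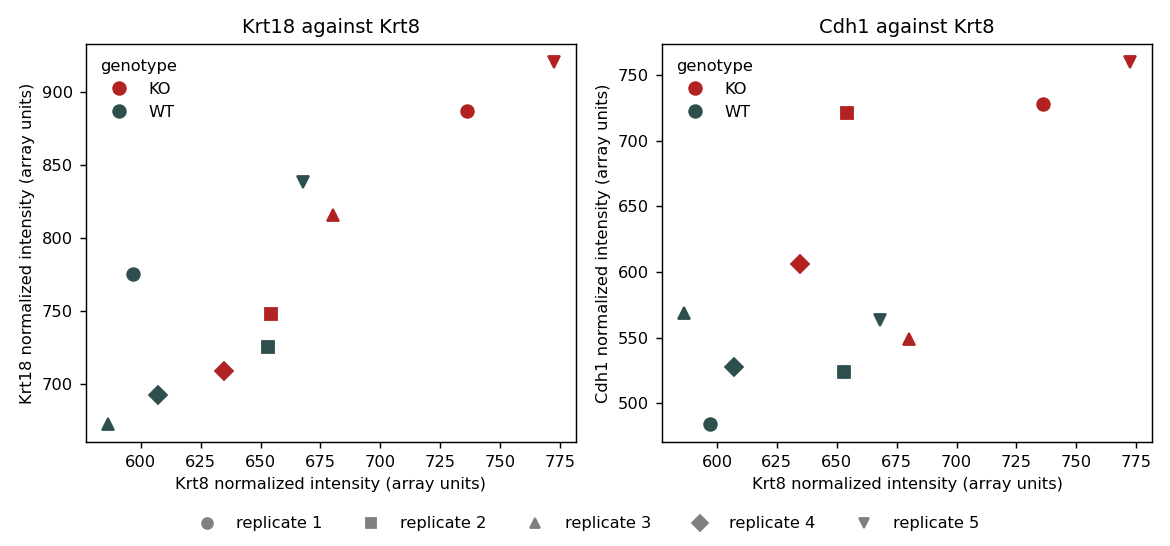
Normalized intensity (array units) of Krt18 against Krt8 on the left and of Cdh1 against Krt8 on the right, 1 point per liver, coloured by genotype with a symbol for the replicate number. Krt18 climbs with Krt8 across both genotypes (r = 0.881), and KO replicates 1 and 5 stand at the top right of both panels. The axes do not start at 0.

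Among the adhesion members, Epcam and Cldn7 were near the floor. Epcam encodes an adhesion protein of epithelial progenitors that binds claudin-7, the tight junction protein encoded by Cldn7. The brighter Epcam probe set, 1447899_x_at, read 40.1, 11.3, 38.8, 28.3 and 28.0 units in KO livers 1 to 5, against 28.8, -6.24, 23.8, 19.1 and 20.02 units in WT livers 1 to 5. In both genotypes replicate 2 was the lowest liver and the only one under the floor. Its log2 difference of 0.45 ± 0.29 was not called (SE, limma adjusted p = 0.672). The other Epcam probe set was under the floor in 4 of 5 KO and 5 of 5 WT livers and was not tested. Epcam lies on chromosome 17, as does Zfp36l2, with 26 protein-coding genes between them in the RefSeq gene table. Whether a stretch of another strain's chromosome around the altered allele touches its signal was not tested. Cldn7 averaged 9.26 ± 11.5 in KO and 9.09 ± 8.65 in WT livers (SD, n = 5 each), with 4 of 5 livers of each genotype under the floor.

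The ductal keratins were no brighter. Krt19, which encodes a type I keratin of bile duct cells, read -3.12, 17.1, 2.40, 15.5 and 18.5 units in KO livers, against 9.35, 16.8, 5.24, 3.61 and 8.36 units in WT livers. It reached the floor in 2 KO livers and 1 WT liver and was not tested. Krt7 read 16.6, 19.7, 0.882, 22.7 and 14.0 units in KO livers, against 9.55, 25.2, 13.4, 5.11 and 24.5 units in WT livers. The genotypes overlapped throughout, and the log2 difference on floored values was -0.08 ± 0.24 (SE, limma adjusted p = 0.954). A difference in either keratin was not detectable at this signal.

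Sox9 encodes the transcription factor that marks the first ductal plate cells. Its probe set 1424950_at read -11.5, -16.1, 16.5, 2.77 and 13.6 units in KO livers 1 to 5, against 33.4, 43.1, -5.53, 30.8 and 29.1 units in WT livers 1 to 5. In WT 4 of 5 livers were above the floor, with WT replicate 3 under it, and in KO 1 of 5 was above it, at 16.5 units. The difference was not called (limma unadjusted p = 0.00627, adjusted p = 0.249, exact permutation p = 0.0556), and no fold is given because the KO values lie near or under the floor. The permutation test used values without the floor, and so it weighs differences among values where no order is read. The other 2 Sox9 probe sets did not show this: 1451538_at averaged 3.39 ± 11.7 in KO and -1.17 ± 18.4 in WT livers, and 1433889_at averaged -11.8 ± 12.7 in KO and -4.40 ± 12.2 in WT livers (SD, n = 5 each). Both failed the filter, and which of the 3 reads the transcript best was not analysed here.

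**Figure D4:**
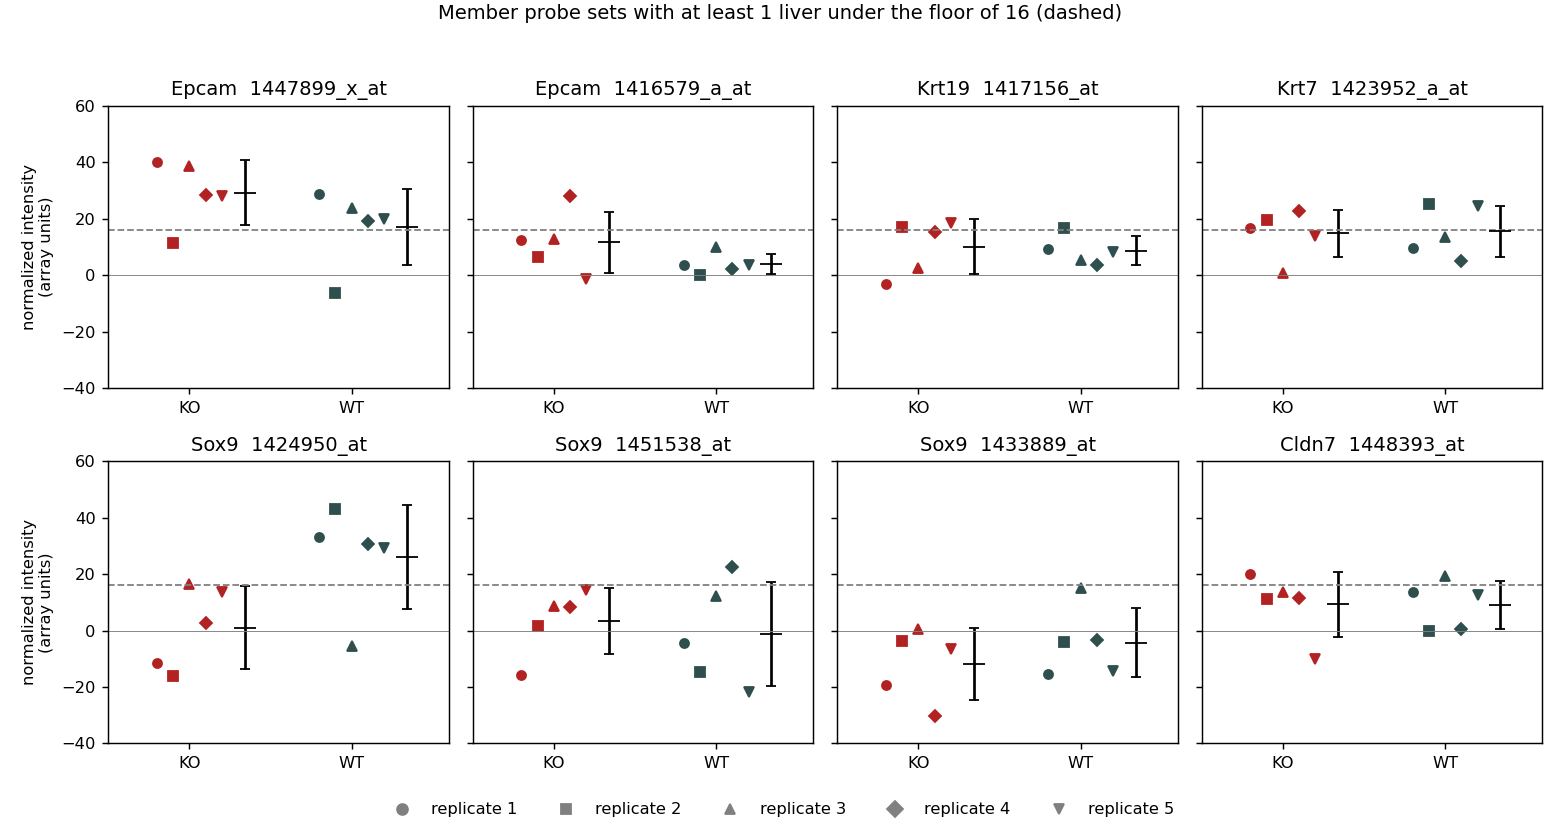
Normalized intensity (vertical axis, array units) of the 8 probe sets of Epcam, Krt19, Krt7, Sox9 and Cldn7 in KO and WT livers, 1 symbol per replicate, with mean and SD as a bar and the floor of 16 as a dashed line. No value exceeds 43.1, and the points of both genotypes scatter around the floor or 0, apart from 4 WT livers at 29.1 to 43.1 in the first Sox9 panel.

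Genes of this epithelium, of other epithelia and of other cell types were taken from lists and are described by the brightest probe set of each gene. Over all 12782 genes tested the median log2 difference was near 0 (0.00035), 50.1% were positive, and 0.336% were called, 21 higher and 22 lower in KO livers. Of the 138 genes tested in the 11 lists of the plot of list medians, none was called in limma, and 32 had an unadjusted p under 0.05, which is 23.2% against 11.4% of all genes. Of these, 9 were erythroid genes with lower values in KO livers, and 6 macrophage and 5 hepatoblast genes had higher values. The lists were chosen with earlier results of these data known, so that share is not read further.

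Adhesion and junction genes, which are not limited to epithelium, had mostly positive differences, none of them called. Of 19 tested genes of adherens junctions and desmosomes, 15 were positive, with a median of 0.08 that was 0.15 with median scaling. Median scaling also moved the median of all genes, from 0.00035 to 0.0448. Ctnnb1, which encodes the beta-catenin that binds the tail of E-cadherin, averaged 3623 ± 187 in KO and 3434 ± 133 in WT livers (SD, n = 5 each; limma adjusted p = 0.680). Vcl, which encodes vinculin, a link from cadherins and integrins to actin that other cells use too, averaged 567 ± 14.5 in KO and 678 ± 51.2 in WT livers, with no overlap (limma adjusted p = 0.129). Of 16 tested claudin and tight junction genes 13 were positive, with a median of 0.16. Tjp1, the gene of the scaffold ZO-1, averaged 417 ± 36.5 in KO and 334 ± 28.3 in WT livers, again with no overlap (log2 difference 0.32 ± 0.09, SE, limma adjusted p = 0.154). Every KO liver lay above every WT liver in 1.14% of all probe sets, and below in 1.19%. Cldn1, a claudin of hepatocytes, averaged 640.3 ± 98.8 in KO and 571 ± 95.3 in WT livers (limma adjusted p = 0.686).

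Keratins outside the member list were dim, and of 13 with a probe set only Krt10 and Krt20 stayed above the floor in all livers. Krt20, a keratin of the gut epithelium, averaged 216 ± 28.9 in KO and 165 ± 46.6 in WT livers (limma adjusted p = 0.424). Krt10, a keratin of the suprabasal epidermis, averaged 72.5 ± 12.3 in KO and 47.7 ± 9.03 in WT livers (limma adjusted p = 0.353). The 7 tested keratins had a median difference of 0.29, with 6 positive. That median was 0.01 without the filter on dim values and 0.52 with a filter at a mean of 50 units, so its size is not read further.

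Further bile duct genes gave no common direction. Of 30 listed genes 26 had a probe set, 13 were tested and 7 of these were positive, with a median of 0.03 that was negative in 12 of 19 alternatives. Of the 26 genes, 9 lay above the floor in all 10 livers. Among these Aqp1, the gene of a water channel that duct cells and red cells carry, averaged 443 ± 218 in KO and 708 ± 227 in WT livers (SD, n = 5 each; limma unadjusted p = 0.0322, adjusted p = 0.446). Anxa4, an annexin gene, averaged 253 ± 70.4 in KO and 206 ± 63.2 in WT livers (limma adjusted p = 0.723). Prom1, which encodes the surface protein CD133 of epithelial and other progenitors, averaged 231 ± 21.2 in KO and 204 ± 32.8 in WT livers (limma adjusted p = 0.640). Itga6, an integrin gene, averaged 120 ± 39.6 in KO and 163 ± 16.8 in WT livers (limma unadjusted p = 0.0133, adjusted p = 0.333). Onecut1, a transcription factor gene, was under the floor in 3 WT livers. It averaged 33.5 ± 18.5 in KO and 15.8 ± 2.83 in WT livers, with no overlap (limma unadjusted p = 0.0158, adjusted p = 0.356). Aqp1, Anxa4, Prom1, Itga6 and Onecut1 were chosen after their values were seen. Cftr, Pkhd1 and Sctr, which encode the chloride channel, fibrocystin and the secretin receptor of duct cells, failed the filter, with mean values of 3.36, 13.8 and 5.06 units in KO and 2.14, 12.4 and 0.508 units in WT livers. Cd24a, a surface protein of ductal and many blood cells, was the brightest of the list, at 11417 ± 858 in KO and 11873 ± 1207 in WT livers (limma adjusted p = 0.877). Tspan8, a tetraspanin, averaged 455 ± 78.5 in KO and 579 ± 58.4 in WT livers (limma adjusted p = 0.244). Genes of the Notch and YAP pathways, which drive the ductal fate, had 9 of 20 positive and a median of -0.05, which was positive in 6 of 19 alternatives. Jag1, a Notch ligand, averaged 36.8 ± 14.2 in KO and 51.9 ± 8.25 in WT livers (limma adjusted p = 0.586). Tgfbr2, a receptor for TGF-beta, averaged 331 ± 52.9 in KO and 289 ± 49.5 in WT livers (limma adjusted p = 0.666). Epithelial splicing and transcription factors had 5 of 11 positive and a median of -0.08, which was positive in 9 of 19 alternatives, 5 of them without a single liver. Within that list Zeb1, a repressor of Cdh1, averaged 132 ± 19.9 in KO and 142 ± 15.1 in WT livers (limma adjusted p = 0.859), and Esrp2, an epithelial splicing regulator, averaged 138 ± 23.8 in KO and 107 ± 27.5 in WT livers (limma adjusted p = 0.531).

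**Figure D5:**
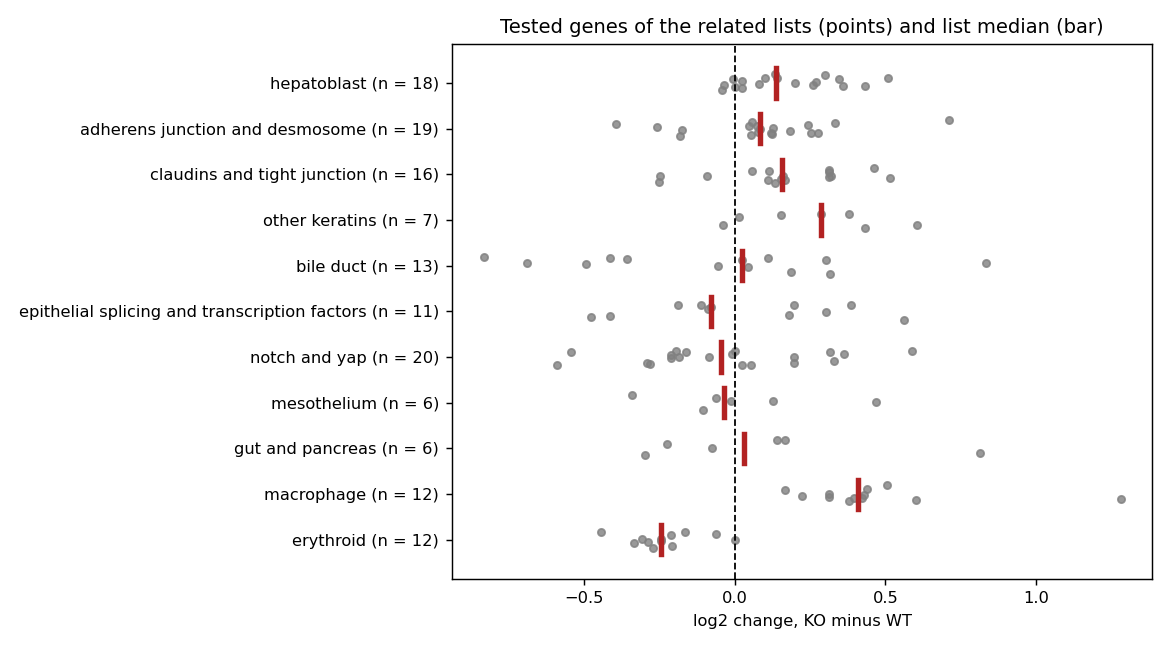
Log2 difference, KO minus WT (horizontal axis), of each tested gene in 11 lists (points, brightest probe set), with the list median as a bar and the median of all genes as a dashed line. The hepatoblast, adherens junction and tight junction medians lie between 0.08 and 0.16, the keratin median, which ranged from 0.01 to 0.52 over the alternatives, at 0.29, the macrophage median at 0.41 and the erythroid median at -0.24.

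Values of other cell type lists are given beside those of Cdh1, Krt8 and Krt18, and their part in these differences was not tested. No gene of the hepatoblast, erythroid or macrophage lists was called, and the summed levels of each list overlapped between genotypes. Hepatoblast genes had 15 of 18 positive and a median of 0.14, close to the differences of the keratins, which hepatoblasts carry. The summed level of that list ran from 76640 to 88917 in KO and from 76642 to 86010 in WT livers. Its gene with the lowest p, Fgb, encoding a fibrinogen chain, averaged 5644 ± 1443 in KO and 3922 ± 761 in WT livers (limma adjusted p = 0.198). Its brightest gene, Afp, encoding alpha-fetoprotein, averaged 16287 ± 366 in KO and 16358 ± 247 in WT livers (limma adjusted p = 0.980). Quantile normalization gives all arrays the same highest values, and Afp read 16538 units in KO and in WT replicates 1, 4 and 5. A genotype difference in Afp could therefore hardly show. Without normalization its log2 difference was -0.03 (limma adjusted p = 0.964). Alb and Ttr, with WT means of 15407 and 15001 units, made up much of the summed level together with Afp. Erythroid genes had 1 of 12 positive and a median of -0.24, with summed levels of 30863 to 35193 in KO and 32320 to 41631 in WT livers. In that list Ank1, encoding the ankyrin of the red cell membrane, averaged 1484 ± 44.4 in KO and 1813 ± 140.2 in WT livers (limma adjusted p = 0.0640). Slc4a1, the gene of the red cell anion exchanger and the brightest of the list, averaged 7896 ± 753 in KO and 7929 ± 1103 in WT livers (limma adjusted p = 0.999). Macrophage genes had 12 of 12 positive and a median of 0.41, with summed levels of 6827 to 8083 in KO and 3354 to 7280 in WT livers, and with Lyz2 at 2162 ± 416 in KO and 1020 ± 688 in WT livers (limma adjusted p = 0.0955, and 0.00158 without WT replicate 5).

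Other epithelia that carry the same keratins were read mostly by dim probe sets. Of mesothelial genes 9 had a probe set and 3 lay above the floor in all livers. These were Podxl, which blood vessel and blood progenitor cells also carry, at 208 ± 57.5 in KO and 212 ± 69.0 in WT livers, Upk3b at 51.1 ± 19.6 in KO and 39.7 ± 23.7 in WT livers, and Upk1b at 26.8 ± 9.08 in KO and 28.5 ± 7.75 in WT livers (SD, n = 5 each; limma adjusted p = 0.993, 0.753 and 0.954). Aldh1a2, a retinoic acid enzyme gene, ranged from -1.27 to 24.9 units with a mean of 13.4 in KO livers and from 14.9 to 39.7 units with a mean of 24.6 in WT livers (limma adjusted p = 0.751). The defining markers Msln and Wt1 averaged 8.79 and -3.04 units in KO and 9.66 and 1.43 units in WT livers. The list had 2 of 6 positive and a median of -0.04, which changed sign in 6 of 19 alternatives, and its summed level ran from 316 to 492 in KO and from 279 to 464 in WT livers. For gut and pancreas genes 14 had a probe set and 3 lay above the floor in all livers, with 3 of 6 positive, a median of 0.03 that changed sign in 5 of 19 alternatives, and summed levels of 338 to 467 in KO and 240.1 to 429 in WT livers. Cdx1, Gcg and Ins2 were under the floor in every liver. Cela1, encoding an elastase, averaged 111 ± 54.8 in KO and 59.7 ± 11.9 in WT livers with no overlap (limma adjusted p = 0.262). Fabp2, the gene of the intestinal fatty acid binding protein, averaged 132 ± 39.4 in KO and 137 ± 32.1 in WT livers (limma adjusted p = 0.954). Cartilage and mesenchyme genes, listed because Sox9 also marks cartilage, had 9 of 10 positive and a median of 0.04 that was -0.08 without KO replicate 2. The cartilage genes Col2a1, Acan and Matn1 failed the filter, and Col9a1 was under the floor in 4 of 5 livers of each genotype. These counts therefore describe mesenchyme genes almost alone. Their brightest gene, Col3a1, averaged 1111 ± 313 in KO and 1075 ± 115 in WT livers (limma adjusted p = 0.994), and Col1a1 averaged 212 ± 54.8 in KO and 161 ± 49.7 in WT livers (limma adjusted p = 0.567). Both encode chains of fibrillar collagens. Genes for integrins and other proteins that bind osteopontin, and its relatives, had 6 of 9 positive and a median of 0.14, which ranged from 0.02 to 0.18 over the alternatives. Of these Itgb3, the beta-3 integrin of platelets, was called and fell by 1.11 ± 0.21 in log2 units, with 61.1 ± 14.3 in KO and 132 ± 30.7 in WT livers (limma adjusted p = 0.0378). That call was lost without any single liver other than KO replicate 3 or WT replicate 2, at log2 differences of -1.14 to -0.99. It was also lost with the floor at the lowest positive value (adjusted p = 0.0792), with a floor of 32 (0.103), without a filter (0.186) and without a trend (0.137). Cd44, of the same list, lay the other way, at 372 ± 18.8 in KO and 281 ± 28.2 in WT livers. It had no overlap and was not called (limma adjusted p = 0.0675).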

How the data were processed

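Biotin-labelled RNA from 10 livers was hybridised to 1 array each, per the labels' protocols. The authors deposited 1 linear, background-subtracted intensity per probe set and array. How these intensities were computed and scaled is not given in the sources used here, and 21.5% of the values were at or below 0. The titles gave genotype and replicate number, and every array stands for 1 fetus.

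Intensities were quantile-normalized, values under 16 were set to 16, and log2 was taken. This floor replaces one near 0, which inflates the differences of dim probe sets. Probe sets with a mean log2 value above the floor and at or over the 40th percentile were kept (27022). The test of KO against WT was the two-sided moderated test of limma 3.58.1 (R 4.3.3) with a mean-variance trend, adjusted after Benjamini and Hochberg over all kept probe sets. The method was tested on simulated data, with changes set in probe sets well above the floor. It called 20.8% of 1.3-fold and 46.8% of 1.5-fold changes, and 6.3% of its calls were false. Differences as small as those of Cdh1, Krt8 and Krt18 can thus go uncalled. Exact permutation tests of normalized intensities and correlations (100000 resamples) used scipy 1.17.1. The smallest p of the exact test is 0.00794. For arrays the number of livers limits the precision.

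The platform annotation gave 34945 probe sets 1 symbol, 932 several and 9160 none, and symbols were updated through a RefSeq gene table. The genes and lists were chosen with earlier results of these data known. Of 220 list symbols 209 had a probe set. The rule named, for each list, up to 4 called genes or else the brightest gene and the gene with the lowest p. Aqp1, Anxa4, Prom1, Itga6, Onecut1, Upk3b, Upk1b, Alb, Ttr, Col2a1, Acan, Matn1 and Col9a1 were named beside these after their values were seen. So were Cd44, Cdx1, Gcg and Ins2. Cftr, Pkhd1, Sctr, Msln and Wt1 were named outside the rule too, as markers of their cell types. The planned correlations of Epcam with Cldn7 and with Cdh1 were not run, since Epcam and Cldn7 lay near the floor. The alternatives covered floor, offset, normalization, filter, variance prior, replicate block and leaving out each liver.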

Additional observations from a re-analysis of the deposited data

Results flagged for a closer look

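By Dixon's criterion, applied to values without the floor, 8 single livers stood away from their own genotype in 86 groups of 5 examined. By chance about 1 group in 20 would do so, which makes 4.3. Among the members, Epcam (1447899_x_at) was low in WT replicate 2 (-6.24 units, nearest 19.1), and Sox9 (1424950_at) was low in WT replicate 3 (-5.53, nearest 29.1). Both values are under the floor, where no order is read, so neither is taken as a liver that stands apart. None of the 5 probe sets of Cdh1, Krt8 and Krt18 had such a value. Zfp36l2 was low in KO replicate 2 (82.3, nearest 103) and high in WT replicate 3 (596, nearest 397). In KO livers, Cela1 was high in replicate 3 (207, nearest 107), Vcl was high in replicate 3 (592, nearest 565) and Lyz2 was low in replicate 2 (1451, nearest 2216). Fgb was high in WT replicate 5 (5232, nearest 3862).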

How the results depend on the processing

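No member probe set was called in any of the 19 alternatives, and the 95 log2 differences of the 5 probe sets of Cdh1, Krt8 and Krt18 under them were all positive. That of Cdh1 ran from 0.28 to 0.40, with adjusted p-values of 0.0918 to 0.477. The count of called probe sets over the whole table, 57 (29 higher and 28 lower in KO), was less stable. It was 11 with the floor at the lowest positive value, 12 with a floor of 32, 4 without a filter, 9 without a trend, and 13 to 168 with 1 liver left out, the highest without WT replicate 5 and the lowest without WT replicate 4. Median scaling called 76, 52 higher and 24 lower, and moved the median of all genes from 0.00035 to 0.0448. With the replicate block 179 were called. The labels do not say that a number marks a shared litter or batch. Same-numbered livers correlated at 0.0285 to 0.130 in their deviations, all 5 above 0 and 1 over 0.1, and 7 of 10 livers, 4 KO and 3 WT, correlated best with their own number, a hint from the data only. As the labels name no pairs, the main test and the correlations did not use the numbers. Whether same-numbered livers share a litter or batch was not tested. The block called no member, and called Fgb, Ank1 and Lyz2. Lyz2 was also called without WT replicate 5 (adjusted p = 0.00158). Without KO replicates 5 and 1 the correlation of Cdh1 with Krt18 was -0.0821, against 0.533 with all livers, and those of Krt8 with Krt18 and with Cdh1 no longer had a p under 0.05 (exact p = 0.0648 and 0.450). The median of the epithelial splicing and transcription factors was positive in 9 of the 19 alternatives, 5 of them without a single liver. Among these it was 0.18 with the floor at the lowest positive value or with a filter at a mean of 50. It was 0.09 with an offset of 16, and 0.05 to 0.09 without KO replicate 1 or 3 or WT replicate 2 or 3. The keratin median was 0.01 without a filter and 0.52 with a filter at a mean of 50, and the adherens junction median was 0.15 with median scaling. The bile duct, Notch and YAP, mesothelial, gut and pancreas, and cartilage and mesenchyme medians lay near 0 and changed sign in 12, 6, 6, 5 and 1 of the 19 alternatives. Some genes with differences near 0 changed sign too. Median scaling gave 0.0376 for Afp, 0.0427 for Podxl and -0.00275 for Slc4a1, no normalization gave -0.0102 for Col3a1 and -0.0683 for Slc4a1, and a floor of 32 gave 0.0104 for Upk1b. With 1 liver left out the differences ran from -0.0125 to 0.00641 for Afp, -0.0822 to 0.0551 for Slc4a1, -0.19 to 0.16 for Podxl, -0.28 to 0.0511 for Upk1b, -0.24 to 0.11 for Fabp2 and -0.11 to 0.13 for Col3a1. Itgb3 lost its call in 12 alternatives. For these results the cause was not tested. Probe sets near the floor have too little signal over background for a difference to be measured.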
